A study of Mus musculus with 3 samples.

Results

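The genes described here are 10 secreted immune signals of fibroblasts: the CXC chemokines Cxcl1, Cxcl2, Cxcl5, Cxcl10 and Cxcl12, the CC chemokines Ccl2, Ccl5 and Ccl7, and the cytokines Il6 and Il33. They were taken as every probe whose RefSeq accession in the scanner files belongs to one of these genes. That gave 11 probes for 10 genes, out of 39429 probes and 32540 genes or unnamed accessions on the array; Cxcl12 had 2 probes and the other genes 1 each. RNA came from primary mouse embryonic fibroblasts of E10.0 embryos on the C57BL/6J background. All 3 groups, the control included, carried the Rb-/-;ATM-/- genotype, so none of them has wild-type pRB. The control received an empty vector, a further group a vector expressing a DNMT1 shRNA (genotype label Rb-/-;ATM-/-;DNMT1-depleted), and the other group a vector expressing ATM. Puromycin (4 ug/ml) was applied for 3 days, culture went on for 4 more days, and each group was measured on 1 Agilent Cy3 array. The last is called the ATM-labelled array below, since no probe signal could check its label. With 1 array per group no culture was repeated, so no difference has a p-value or a replicate error.

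Chemokines are small secreted proteins that draw leukocytes along a gradient by binding seven-helix receptors, and fibroblasts are a main local source of them during tissue injury. Cxcl1, Cxcl2 and Cxcl5 attract neutrophils, Ccl2 and Ccl7 attract monocytes, and Cxcl10 and Ccl5 attract activated T cells, whereas Cxcl12 is made by stromal cells at rest and retains haematopoietic progenitors. IL-6 signals through gp130 to STAT3, and IL-33 is a nuclear alarmin of stromal cells that acts on the receptor ST2 once released. Many of these genes are induced through NF-kB, and Cxcl10 and Ccl5 also through interferon regulatory factors.

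Promoter windows of 300 bases, from 250 before to 50 after the gene's start, were available from RefSeq (GRCm38.p6) for 6 of the 10 genes, with 2 windows for Il33. The windows below are shown because they set the 2 genes that were at least 2-fold lower on the ATM-labelled array and have a window without an NF-kB match (Il33 and Cxcl12) beside 3 genes whose window has one (Cxcl10, Cxcl1 and Il6). Cxcl10 was itself 6.62-fold lower on that array, and Cxcl5 and Ccl5, also lower there, had no window. With spike-in scaling Cxcl12 was not lower. A link between matches and differences was not tested. They are written 5′ to 3′ on the gene's strand in lower case. Capitals mark matches, on either strand, to the NF-kB consensus, to GAAANNGAAA (the interferon-stimulated response element), to TGANTCA (AP-1) or to TATAAA. Overlapping matches are run together.
Il33, chr19:29924863-29925162, + strand: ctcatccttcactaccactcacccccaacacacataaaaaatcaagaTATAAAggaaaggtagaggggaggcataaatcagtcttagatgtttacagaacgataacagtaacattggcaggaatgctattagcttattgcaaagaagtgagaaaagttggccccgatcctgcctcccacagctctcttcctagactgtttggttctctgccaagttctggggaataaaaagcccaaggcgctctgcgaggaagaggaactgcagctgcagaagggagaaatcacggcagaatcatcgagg
Il33, chr19:29945540-29945839, + strand: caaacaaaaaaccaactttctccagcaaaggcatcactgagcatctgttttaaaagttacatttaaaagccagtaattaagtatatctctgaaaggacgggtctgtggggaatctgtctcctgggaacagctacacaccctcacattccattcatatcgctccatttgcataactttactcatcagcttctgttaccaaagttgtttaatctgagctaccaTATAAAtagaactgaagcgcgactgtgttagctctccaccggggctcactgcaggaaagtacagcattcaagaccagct
Cxcl12, chr6:117168285-117168584, + strand: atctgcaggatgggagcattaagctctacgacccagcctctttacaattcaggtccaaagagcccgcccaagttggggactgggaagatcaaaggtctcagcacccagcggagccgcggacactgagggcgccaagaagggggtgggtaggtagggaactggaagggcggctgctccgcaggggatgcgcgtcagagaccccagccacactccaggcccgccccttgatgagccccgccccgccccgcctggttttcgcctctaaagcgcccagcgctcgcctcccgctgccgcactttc
Cxcl10, chr5:92348840-92349139, - strand: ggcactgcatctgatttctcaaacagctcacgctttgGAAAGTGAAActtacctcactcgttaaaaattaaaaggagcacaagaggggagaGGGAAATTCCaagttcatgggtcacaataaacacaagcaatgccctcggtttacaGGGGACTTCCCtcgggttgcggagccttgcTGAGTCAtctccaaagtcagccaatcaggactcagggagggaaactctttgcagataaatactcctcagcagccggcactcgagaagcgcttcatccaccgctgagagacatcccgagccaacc
Cxcl1, chr5:90890995-90891294, + strand: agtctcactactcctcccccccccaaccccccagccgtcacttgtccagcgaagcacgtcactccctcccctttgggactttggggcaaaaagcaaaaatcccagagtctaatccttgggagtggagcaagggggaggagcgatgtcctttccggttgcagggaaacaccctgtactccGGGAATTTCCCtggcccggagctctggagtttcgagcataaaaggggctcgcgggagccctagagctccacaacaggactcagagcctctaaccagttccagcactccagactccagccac
Il6, chr5:30012864-30013163, + strand: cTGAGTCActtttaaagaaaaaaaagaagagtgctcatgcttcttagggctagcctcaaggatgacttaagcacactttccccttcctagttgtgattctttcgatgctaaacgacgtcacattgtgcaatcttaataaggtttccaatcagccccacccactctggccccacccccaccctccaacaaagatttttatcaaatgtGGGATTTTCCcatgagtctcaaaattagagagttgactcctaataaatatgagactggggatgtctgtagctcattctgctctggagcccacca

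An NF-kB match was present in the windows of 4 genes: Cxcl10 with 2 separate matches, and Cxcl1, Cxcl2 and Il6 with 1 each. Of 32851 mouse promoter windows of this length, 8.46% held such a match. Cxcl10 also held GAAANNGAAA, found in 3.44% of all windows, and TGANTCA, found in 7.81%, and the Il6 window held TGANTCA. Both Il33 windows held TATAAA, as did 13.6% of all windows, at position -29 from the start in the downstream window and -203 in the upstream window. CpG dinucleotides, the sites that Dnmt1 methylates, numbered 20 in the Cxcl12 window, 10 each in those of Cxcl1 and Cxcl10, 11 in that of Cxcl2, 6 and 5 in those of Il33 and 3 in that of Il6, against a median of 7 over all windows (quartiles 3 and 20). These are matches of letters and counts. Neither binding nor methylation was measured on these arrays.

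The arrays had 55.1%, 59.6% and 55.0% of 39404 probes well above background in the order empty vector, Dnmt1 shRNA and ATM vector, which is kept for every set of 3 signals. Signals are quoted in intensity units as deposited. Differences are on the log2 scale, taken after the 75th percentile of each array (2312, 2061 and 2101 units) had been subtracted. Levels of different probes were not compared. Slide 1 held the arrays of the empty vector and the Dnmt1 shRNA and slide 2 that of the ATM vector. The scan dates split the arrays in the same way. Slide, scan and group therefore cannot be told apart in the ATM vector comparison. The scanner software marked 1 quality metric as out of range on the ATM-labelled array and 0 on the others. The signals of 5 spike-in control probes differed there by a median of -2.35, against -0.06 for the Dnmt1 shRNA array. If the spike-ins were used for scaling, every difference on the ATM-labelled array would move up by 2.21, so those differences are relative to the array as a whole. Dnmt1 gave signals of 4908, 956 and 3169, a difference of -2.19 on the Dnmt1 shRNA array. Rb1 gave 541, 782 and 460, differences of 0.70 and -0.10. One Atm probe gave 430, 366 and 409 and the other was not well above background. Where the Atm and Rb1 probes lie relative to the deletions is unknown here, so these signals are no check of the deletions or the vector.

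Of 12 fibroblast markers, 11, 12 and 12 were well above background, and their summed level was 524, 579 and 615 times the 75th percentile. For such sums a gene's level was its mean log2 level over all its probes, also those not well above background. A gene with only 1 bright probe can therefore add little to a sum. Single markers differed more than the sum: Thy1, dim on the empty-vector array, was at least 36.2-fold higher, Lum 2.49-fold and Pdgfra 2.26-fold higher on the Dnmt1 shRNA array. The proteoglycan genes Lum and Dcn were 9.23-fold and 2.15-fold lower on the ATM-labelled array. Of 9 myeloid markers, 4, 3 and 3 were well above background, with summed levels of 0.833, 1.14 and 0.522, and the macrophage markers Adgre1, Lyz2, Fcgr1, Aif1 and Mrc1 were not well above background on any array. Itgam gave 9529, 9346 and 8468 and Csf1r 1997, 4751 and 1580, each with its brightest probe. Cd14 gave 1183, 1265 and 519, and Ptprc passed on the empty-vector array alone. Csf1r was 2.04-fold higher on the Dnmt1 shRNA array over its probes (1.73, 1.42 and -0.05). Cd14 was 2.07-fold lower on the ATM-labelled array. Lymphocyte markers numbered 3, 3 and 3 of 8 (summed level 0.634, 0.52 and 0.757) and endothelial markers 2, 2 and 2 of 7 (0.128, 0.115 and 0.171). Cd79a and Cdh5 were not well above background on any array. Cd4 gave 1953, 1827 and 1409 with its brighter probe, Cd3e 884, 593 and 772, and Lck 352, 251 and 611. Pecam1 gave 57.8, 60.7 and 94.5. Kdr gave 4542, 3738 and 6248 with its brighter probe, and its other probe was not well above background. That brighter probe lay above the 75th percentile of each array, while the endothelial sum lay far below it. Epithelial markers numbered 4, 7 and 4 of 9 (2.41, 3.22 and 2.65), with Epcam not well above background on any array. Those that differed most with the Dnmt1 shRNA were higher: Krt18 and Krt8 had bounds of 5.31 and 4.46 on the log2 scale, Dsp, a desmosome gene, had a bound of 2.20, and Krt14, a basal keratin, differed by 2.08. With the ATM vector Krt14 differed by 5.98, and Krt19 by -2.44 in the other direction. The part of these markers in the results was not tested. In RNA from a whole culture, fewer cells making a transcript and less of it per cell cannot be told apart.

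The 10 genes did not differ alike on the ATM-labelled array. Il33, Ccl5, Cxcl10, Cxcl12 and Cxcl5 were at least 2-fold lower than on the empty-vector array, by 46.8-fold for Il33, while Cxcl1, Ccl2 and Il6 were higher by less than 2-fold and Ccl7 was 1.80-fold lower. With spike-in scaling the signs for Cxcl12 and Ccl7 turned, Ccl5 (-0.60) and Cxcl10 (-0.52) were no longer 2-fold lower, and Cxcl1 (2.42), Ccl2 (2.75), Il6 (2.48) and Ccl7 (1.37) were at least 2-fold higher. On the Dnmt1 shRNA array the changes were fewer: Cxcl5 was 15.9-fold higher, Cxcl10 was 2.78-fold lower, and the other 7 genes measured differed by less than 2-fold. Cxcl2 had no signal well above background.

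**Figure D1:**
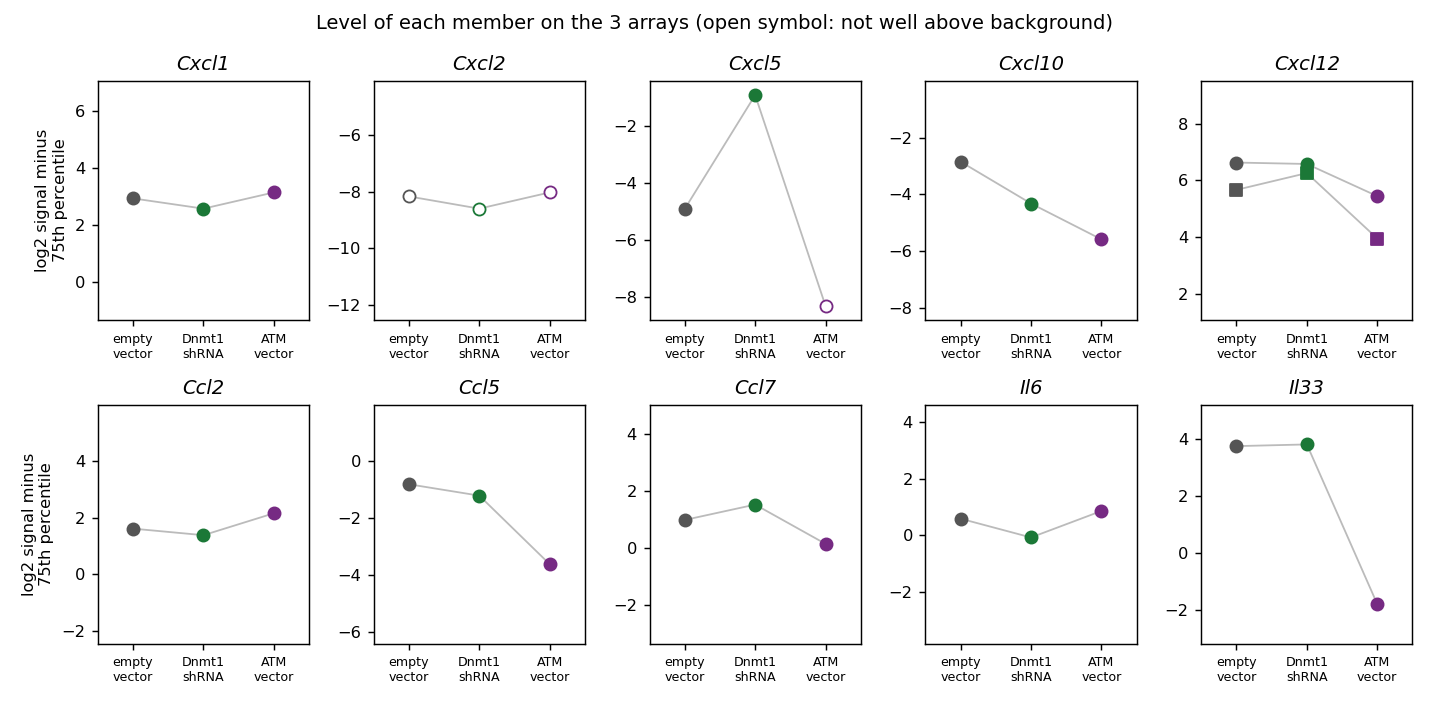
Level of each gene on the 3 arrays, as log2 signal minus the 75th percentile of the array; all panels span the same number of log2 units, open symbols are signals not well above background, and the circle and square of Cxcl12 are its 2 probes. Il33, Ccl5, Cxcl10, Cxcl12, Ccl7 and Cxcl5 have their lowest point on the ATM-labelled array (for Cxcl10, Cxcl12 and Ccl7 not with spike-in scaling), and Cxcl1, Ccl2 and Il6 their highest. Cxcl5 was not well above background there, so with spike-in scaling its place relative to the empty-vector array is not known.

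The Dnmt1 shRNA comparison asks what differs once the maintenance methyltransferase is depleted, and 9 of the 10 genes could be compared in it. Of these, 1 was at least 2-fold higher, where 7.68% of 19359 genes tested were (4.79% with dim signals set to their bound), and 1 was at least 2-fold lower, where 2.23% were (1.81% with bounds). The median difference of the 9 genes was -0.23, and that of all genes tested was -0.02. The ATM vector comparison asks what differs once ATM is returned. Here 0 of 9 genes were at least 2-fold higher, where 8.45% of 18463 genes were (6.95% with bounds), and 5 were at least 2-fold lower, where 7.96% were (6.36% with bounds). The median of the 9 genes was -1.45, or -1.11 with Cxcl5 at its bound, and that of all genes was 0.05. Signals not well above background are called dim. A bound sets the brighter signal against the lowest signal that counted as well above background on the dim array. That lowest signal was 37.8, 25.1 and 32.7, so a weak signal passed most easily on the Dnmt1 shRNA array. The genes tested include unnamed accessions, each counted as a gene, whereas the 10 genes and the lists below are all named genes. Both comparisons use the same empty-vector array, so they are not independent of each other.

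The neutrophil chemokines Cxcl1, Cxcl2 and Cxcl5 all signal through the receptor Cxcr2, yet their probes gave different pictures. Cxcl1 gave signals of 17696, 12328 and 18647. It was bright on all 3, and its differences were -0.36 and 0.21, a spread of 1.48-fold from the lowest to the highest array. Cxcl2 gave 8.03, 5.31 and 8.04, not well above background on any array, so no fold is given. Cxcl5 gave 77.5, 1101 and 6.63. The gene was near the detection limit on the empty-vector array, clear on the Dnmt1 shRNA array and not well above background on the ATM-labelled array. Its signal was 15.9-fold higher on the Dnmt1 shRNA array (log2 difference 3.99, or 3.05 with normexp background correction), and 1.06% of genes tested differed by more in that comparison. It was at least 2.16-fold lower on the ATM-labelled array. The measured difference there was -3.41, and the scanner's own error estimate for that spot was 99.6% of the signal (14.1% and 10.0% on the other arrays). With normexp that difference was -0.88 and no longer 2-fold.

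Cxcl10 and Ccl5 attract activated T cells. Cxcl10 gave signals of 321, 103 and 44.0, highest on the empty-vector array and lowest on the ATM-labelled array. It was the only one of the 10 genes at least 2-fold lower on both the Dnmt1 shRNA and the ATM-labelled array, by 2.78-fold on the Dnmt1 shRNA array and 6.62-fold on the ATM-labelled array (differences -1.47 and -2.73). The scanner's error estimates were 10.3%, 11.1% and 18.9% of the signal. The size depended on the background correction: over the other settings the differences ran from -1.71 to -1.04 and from -2.77 to -1.70. With spike-in scaling the second was -0.52, under 2-fold and no longer the lowest. Ccl5 gave 1309, 882 and 170, lowest on the ATM-labelled array. Its differences were -0.40 and -2.81, the second 7.02-fold lower, or -0.60 with spike-in scaling. In the ATM vector comparison 4.36% of genes tested differed by more than Ccl5 and 4.70% by more than Cxcl10.

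The 2 probes of the stromal chemokine Cxcl12 gave strong signals on every array. Probe A_51_P172502 gave 228999, 197091 and 91520, and probe A_55_P1966204, keyed to another RefSeq transcript, gave 117709, 157531 and 32660. Both were lowest on the ATM-labelled array, with differences of -1.19 and -1.71 and a mean of -1.45, or 2.73-fold lower; with spike-in scaling the mean turned to 0.76. On the Dnmt1 shRNA array the probes disagreed in sign, at -0.05 and 0.59, with a mean of 0.27.

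The monocyte chemokines Ccl2 and Ccl7, neighbours on chromosome 11 that act on the receptor Ccr2, differed in opposite directions on each array (with spike-in scaling both were higher on the ATM-labelled array). The Ccl2 probe was printed at 10 spots on each array, which shows the technical spread. Its spots ran from 6400 to 7567 with the empty vector, from 4850 to 5634 with the Dnmt1 shRNA and from 8535 to 10103 with the ATM vector, with an SD of 0.074, 0.068 and 0.073 on the log2 scale (n = 10 spots). The spots of the 3 arrays did not overlap. The mean differences were -0.23 and 0.54, larger than the spread between spots, which says nothing about the spread between cultures. Ccl7 gave 4570, 5925 and 2312, highest on the Dnmt1 shRNA array and lowest on the ATM-labelled array. Its differences were 0.54 and -0.84, with the second turning to 1.37 under spike-in scaling.

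**Figure D2:**
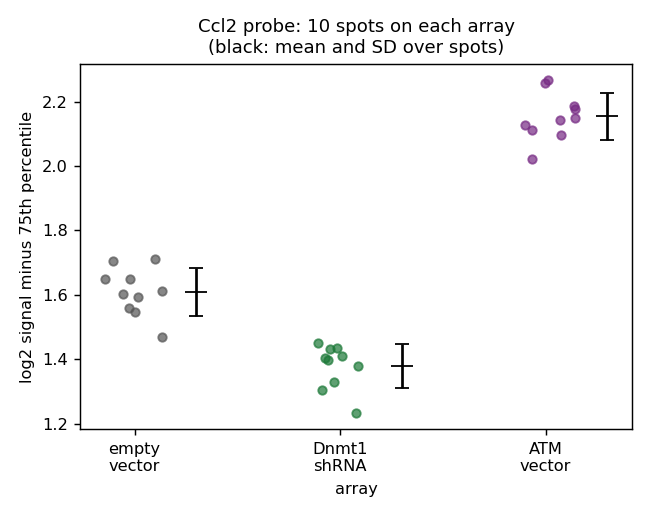
Log2 signal minus the 75th percentile for each of the 10 spots of the Ccl2 probe on each array, with the mean and SD over spots in black. The spots of one array have an SD of 0.068 to 0.074 and, at this scaling, do not overlap those of another. They are technical repeats of 1 culture. The highest Dnmt1 shRNA spot (1.4507) lies close to the lowest empty-vector spot (1.4693). The mean difference of these 2 arrays ran from -0.47 to -0.19 over the other settings, so their separation depends on the scaling.

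Of the cytokines, Il6 gave signals of 3484, 1960 and 3817, lowest on the Dnmt1 shRNA array, with differences of -0.66 and 0.27 that stayed under 2-fold. Il33 gave 31315, 29111 and 608. The Dnmt1 shRNA array differed by 0.06, with a sign that depended on the scaling, and the ATM-labelled array was 46.8-fold lower (difference -5.55). In all, 0.498% of genes tested differed by more in that comparison. The signal of 608 was well above background, so the fold is measured and not a bound, and over the other settings the difference ran from -5.59 to -5.50. With spike-in scaling it was -3.34.

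**Figure D3:**
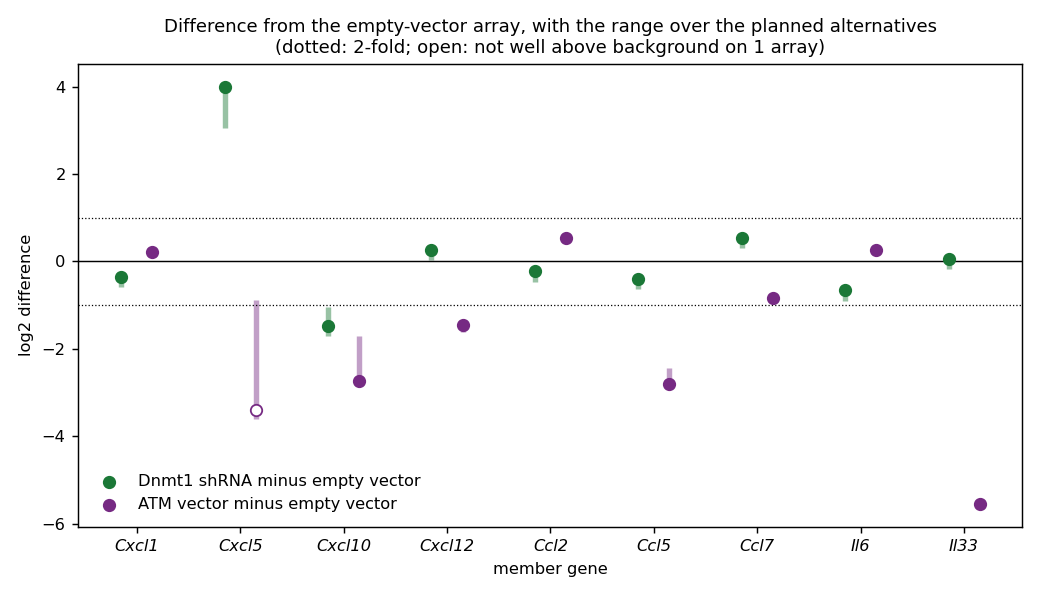
Log2 difference from the empty-vector array for the 9 genes that could be compared, with bars for the range over the other processing settings, dotted lines at 2-fold and an open symbol where 1 array was not well above background. Il33 stands at -5.55 on the ATM-labelled array with hardly any bar, whereas the bar of Cxcl5 there reaches -0.88; spike-in scaling, not drawn, would move all points of that array up by 2.21, turning Cxcl12 to 0.76 and Ccl7 to 1.37.

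Set in order over the 3 arrays, 6 of the 9 genes had a range of at least 2-fold, and all 6 were lowest on the ATM-labelled array (for Cxcl10, Cxcl12 and Ccl7 not with spike-in scaling): Cxcl5 (at least 34.4-fold), Il33 (48.8-fold), Ccl5 (7.02-fold), Cxcl10 (6.62-fold), Cxcl12 (3.29-fold) and Ccl7 (2.61-fold). A range over 3 arrays reaches 2-fold more easily than a single difference does. Ccl7 reached it with differences from the empty-vector array of only 0.54 and -0.84. The share of all genes with such a range was not computed, nor the share of those lowest on the ATM-labelled array. Whether these counts are unusual was therefore not tested. The bound of Cxcl5 against the empty-vector array was -1.11, smaller in size than the spike-in shift of 2.21. With that scaling its place relative to the empty-vector array is not known. Cxcl1, Ccl2 and Il6 had ranges of 1.48-fold, 1.71-fold and 1.91-fold, each lowest on the Dnmt1 shRNA array and highest on the ATM-labelled array. Neighbours in these orders lay under 2-fold apart at both steps for Cxcl1, Ccl2, Il6 and Ccl7, and between the empty-vector and Dnmt1 shRNA arrays for Il33, Cxcl12 and Ccl5; no replicate culture gives a spread for these steps.

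Most of these chemokine genes sit in clusters of related genes, and their neighbours did not all follow them. On chromosome 5 the order is Cxcl5, Ppbp, Pf4, Cxcl3, Cxcl15, Cxcl1 and Cxcl2. In the Dnmt1 comparison 6 of these 7 had a signal and 3 were at least 2-fold higher with bounds: Cxcl5 (3.99), Pf4, platelet factor 4 (1.82), and Cxcl15 (1.49). Ppbp stood at 0.77 and Cxcl1 at -0.36. Cxcl3 was well above background on the Dnmt1 shRNA array alone, with signals of 9.34, 56.5 and 9.72 and a bound of 0.75. On the ATM-labelled array 5 of the cluster had a signal and 2 were at least 2-fold lower, Cxcl15 (-1.78) and Cxcl5 by its bound (-1.11), while Ppbp and Pf4 were at -0.49 and -0.68. The probe signals of Cxcl15 were 637, 1593 and 168, the same order over the arrays as Cxcl5. Near-identical copies within this cluster could share signal, and probe sequences were not used here.

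Further along chromosome 5, Cxcl9 and Art3, the neighbours of Cxcl10, were not well above background on any array. In the chromosome 11 cluster of Ccl2, Ccl7, Ccl11, Ccl12, Ccl8 and Ccl1, only Ccl2 and Ccl7 had a signal on all arrays. Ccl8, with signals of 15.7, 35.7 and 13.9, was well above background only on the Dnmt1 shRNA array. Its bound there was 0.08, and 35.7 is below the lowest signal that passed on the empty-vector array (37.8). Ccl5 lies beside Ccl9, Ccl6, Ccl3 and Ccl4. Ccl9, a macrophage inflammatory protein, had signals of 5642, 3389 and 22072 and was 4.31-fold higher on the ATM-labelled array, where Ccl5 was 7.02-fold lower. Ccl3 and Ccl4 were not well above background on any array.

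**Figure D4:**
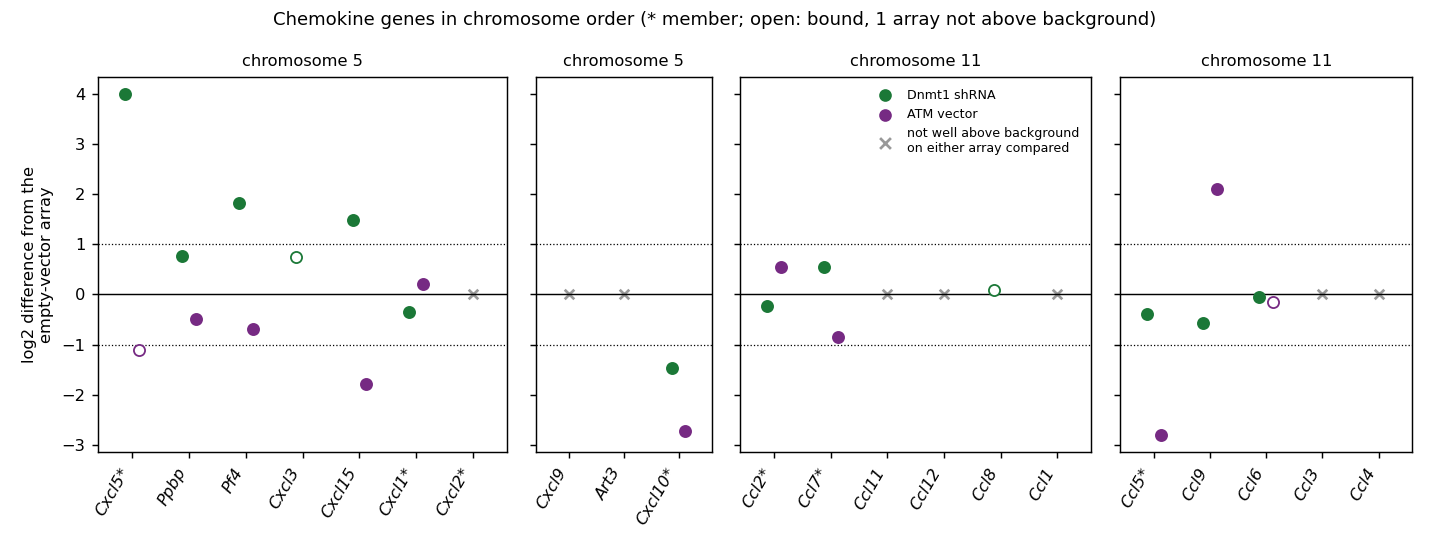
Log2 difference from the empty-vector array for chemokine genes in their order along chromosomes 5 and 11 (distances not to scale), with members starred, open symbols for bounds and a cross at 0, which is not a value, where no array compared was well above background. Cxcl5, Pf4 and Cxcl15 lie above the 2-fold line on the Dnmt1 shRNA array, and Ccl5 and its neighbour Ccl9 lie on opposite sides of 0 on the ATM-labelled array.

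The lists of related genes are given against the shares and medians of all genes above. Spike-in scaling would add 2.21 to each measured difference of the ATM-labelled array, so those below 0 by less than 2.21 would turn sign. Where only a bound lies below 0 by less than 2.21, the sign would not be known.

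Among the other chemokine ligands, 14 of 26 on the array could be compared for the Dnmt1 shRNA array; 5 were higher by 2-fold or more (3 with bounds) and 0 were lower. The median of these ligands was 0.66, and bounds brought it to 0.46. Cxcl17, a mucosal chemokine, was 3.91-fold higher there. For the ATM-labelled array 12 could be compared, 1 was higher and 4 were lower (median -0.58, or -0.38 with bounds). Cxcl14, a chemokine made by fibroblasts and epithelia, gave signals of 1100, 709 and 7.90 and was at least 30.6-fold lower there. Ccl17, a ligand of Ccr4, gave 699, 624 and 136 and was 4.66-fold lower.

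The receptor genes were read as well. The probes of Cxcr2, Cxcr3, Cxcr4, Ccr1 and Ccr2, which bind chemokines described above, were not well above background on any array. Ackr3, a scavenging receptor of Cxcl12, was well above background on all arrays, with signals of 5240, 6491 and 7024 and differences of 0.47 and 0.56. For IL-6, the probe of the receptor chain Il6ra gave 1124, 1271 and 1738 and that of the signal transducer Il6st, which encodes gp130, gave 11862, 11338 and 8924. For IL-33, Il1rl1, which encodes ST2, was well above background on all arrays with 2 of its 3 probes, and the difference was 0.96 on the Dnmt1 shRNA array. These receptors were picked for the 10 products, and those other than Ackr3 and Il1rl1 were chosen outside the naming rule. Over the whole list of 23 chemokine receptors, 8 could be compared on the Dnmt1 shRNA array (3 higher, 0 with bounds, 0 lower, median 0.07 with bounds) and 5 on the ATM-labelled array (1 higher, 0 with bounds, 0 lower, median 0.45 with bounds). Ackr4 (7.55, 63.6 and 13.4) and Cxcr1 (7.91, 61.8 and 7.74) were well above background on the Dnmt1 shRNA array alone. Their bounds there were 0.92 and 0.87, the largest of the list.

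In the IL-6 family and its signalling, 0 of 15 were at least 2-fold different on the Dnmt1 shRNA array (median 0.07). In the ATM vector comparison 1 of 15 was higher and 3 were lower (median -0.36). Lifr, the receptor of leukaemia inhibitory factor, gave 11194, 13803 and 2854 with its brightest probe and was 3.63-fold lower over its probes. Lif itself was 2.49-fold lower, Socs3, a feedback inhibitor of STAT3 signalling, was 2.24-fold lower, and the kinase Jak2 was 3.00-fold higher.

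In the IL-1 family, to which Il33 belongs, 2 of 14 were at least 2-fold higher and 0 lower on the Dnmt1 shRNA array (median 0.19), and 3 of 14 were higher and 2 lower on the ATM-labelled array (median -0.03). Il1rn, the IL-1 receptor antagonist, gave signals of 2165, 2323 and 27.0 and was at least 60.2-fold lower on the ATM-labelled array. Il18, another cytokine of the family, went the other way with 346, 515 and 4573, 14.5-fold higher. Casp1, the protease that matures IL-1beta and IL-18, gave 9.03, 266 and 327 and was at least 7.88-fold and 9.51-fold higher on the 2 arrays. Sigirr, an inhibitory receptor, was 2.54-fold and 9.81-fold higher. Il1a and Il1b were dim on all 3 arrays.

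The NF-kB pathway list had 0 of 23 genes at least 2-fold different on the Dnmt1 shRNA array (median 0.08) and 0 higher and 2 lower on the ATM-labelled array (1 with bounds; median -0.13). Tnfrsf1a, the main TNF receptor, was 3.13-fold lower there with both probes lower (-1.28 and -2.01). Tnf itself was dim on all 3 arrays. Among interferon and innate sensing inputs, 1 of 20 was higher (0 with bounds) and 0 lower on the Dnmt1 shRNA array, and 1 of 18 was higher and 2 lower on the ATM-labelled array, with medians of 0.04 and 0.03. The 2 were Ifih1, a sensor of double-stranded RNA (4.23-fold lower), and Sting1, the adaptor of cytosolic DNA sensing, with signals of 5922, 3143 and 1813 (2.97-fold lower). Ifnb1 was dim on all 3 arrays. Irf7 was well above background on the Dnmt1 shRNA array alone, with a bound of only 0.28.

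Among regulators of cytokine mRNA decay, 0 of 12 were at least 2-fold different on the Dnmt1 shRNA array (median -0.18), and 2 of 12 were higher and 0 lower on the ATM-labelled array (median 0.03): Dusp1, a phosphatase of p38 (2.51-fold), and Zfp36, which encodes the mRNA-destabilising protein tristetraprolin (2.07-fold). Of the other inflammatory secreted and surface factors, 4 of 12 were higher (3 with bounds) and 1 lower on the Dnmt1 shRNA array (median 0.52, or 0.25 with bounds). Icam1, a leukocyte adhesion molecule, gave 47.2, 167 and 8.57 and was 3.98-fold higher; the complement gene C3 was higher by 1.63 on the log2 scale and Il34, a ligand of the Csf1 receptor, was 2.94-fold higher. Ptgs2, the inducible cyclooxygenase, gave 2896, 932 and 3415, lowest on the Dnmt1 shRNA array as Il6 was, and was 2.77-fold lower. In the ATM vector comparison 0 of 11 were higher and 3 lower (2 with bounds; median -0.34), among them Lcn2, an iron-sequestering lipocalin, at 3.52-fold.

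**Figure D5:**
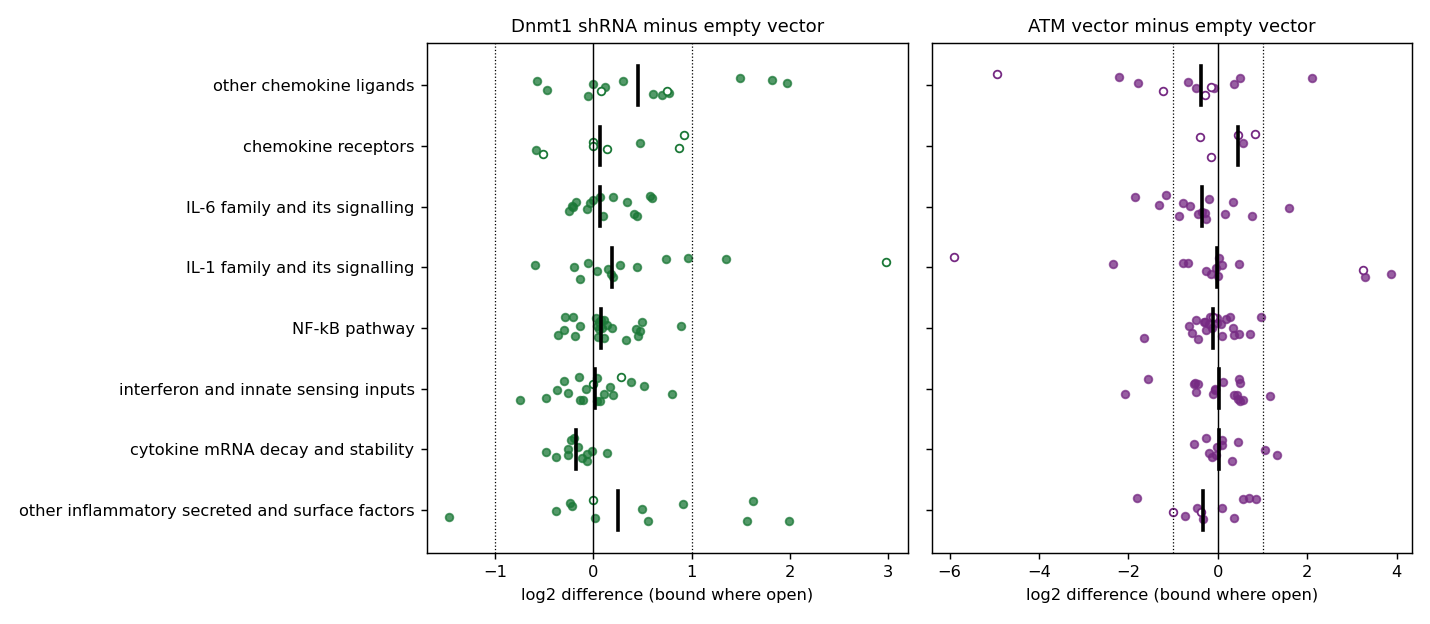
Log2 difference from the empty-vector array for each gene of the 8 pathway lists, in both comparisons, with open symbols for bounds, black bars at the list median and dotted lines at 2-fold. In the left panel all genes of the NF-kB, interferon and mRNA decay lists lie between the dotted lines. In the right panel 1 of 23 NF-kB genes lies below them. Of 18 interferon genes 1 lies above and 2 below, and 2 of 12 decay genes lie above. Of all genes in that comparison, 6.95% were higher and 6.36% lower with bounds. The IL-1 list has the widest range in both panels. Filled points of the right panel would move up by 2.21 with spike-in scaling. An open point below 0 by less than 2.21 would then have no known sign.

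The genes whose pair of differences lay nearest to those of the 3 widest-ranging genes measured on all arrays were found by Euclidean distance over 12138 genes. With 3 arrays this rests on only 2 differences that share a control. Nearest to Il33 were Sfrp1, a secreted Wnt antagonist (distance 0.12; differences 0.16 and -5.49), Efs (0.406) and Hunk (0.45). Nearest to Ccl5 were Zfp521 (0.216), Itih2 (0.266) and Prxl2b (0.268). Nearest to Cxcl10 were Pheta2 (0.412), Btc, an EGF-family ligand (0.424), and Has2, a hyaluronan synthase (0.541).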

How the data were processed

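RNA of 3 cultures was hybridised to 3 Agilent 1-colour arrays, 1 per group. The submitters' processing notes name Agilent Feature Extraction, version 10.7.3.1, and the authors deposited its scanner output, whose processed signal is a background-subtracted intensity on a linear scale, per the file headers. Marks for well above background, saturation and outlier spots come from the same deposited files. The deposited series matrix holds the same intensities within 0.495%.

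Control and outlier spots were left out, log2 signals of a probe's spots were averaged, and each array's 75th percentile was then taken off. A gene was compared if a probe was well above background on either array, and its difference is the mean over such probes. At least 2-fold counted as different. Probes were named through RefSeq accessions and a GRCm38.p6 gene table: 26412 of 39429 matched 1 symbol and 13017 none. Gene order and promoter windows come from RefSeq tables of that assembly. The series' own build was not used for any position.

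Alternatives were normexp background correction (offset 50, on median spot signals, since mean signals were not among the columns used), other scalings, other filters on dim probes, bounds, outlier spots kept, the series matrix values and a 1.5-fold threshold; scaling to spike-in controls was added after the data were seen. The 10 genes and all lists were chosen with earlier results of these data known. Named genes are all 10 genes, up to 4 per list and comparison with the largest difference, the nearest genes of 3 of them, and Dnmt1, Atm and Rb1. Neighbours within chemokine clusters, receptors of the 10 products and genes named as not well above background stand outside this rule and were chosen after their values were seen, as was Irf7. Values of a few listed genes are not reported here. The procedure was checked on data simulated from the empty-vector array, with changes put only into genes well above background on all arrays. Changes in dim genes, bounds and spike-in scaling were outside that check. Python 3.11.15, numpy 2.4.6, pandas 2.3.3, R 4.3.3 and limma 3.58.1 were used. The number of arrays limits the precision.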

Additional observations from a re-analysis of the deposited data

How the results depend on the processing

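With 1 array per group, no replicate could be left out and no test was run; repeated spots give technical spread only. No paired analysis was possible because each group has 1 array. Over the other settings, all differences of the 9 genes kept their sign except that of Il33 on the Dnmt1 shRNA array (-0.18 to 0.17), and calls at 2-fold were unchanged except for Cxcl5 on the ATM-labelled array (-0.88 with normexp). With only probes above background on all arrays, 0 genes were higher on the Dnmt1 shRNA array in place of 1, since Cxcl5 was then not compared. With a 1.5-fold threshold 2 were lower there in place of 1. Scaling to the spike-ins, added after the data were seen, gave 4 genes higher and 2 lower on the ATM-labelled array in place of 0 and 5, and turned Cxcl12 to 0.76. The 2 lower genes were Il33 and Cxcl5, the latter at -1.20 from a signal not well above background. The median of all genes then stood at 2.26 and 98.0% of genes past 2-fold were higher, in place of 51.5%. The cause was not tested.

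Over all genes, 1486 were higher and 432 lower on the Dnmt1 shRNA array. With normexp these were 582 and 102, with only probes above background on all arrays 459 and 109, with bounds 928 and 351, without a filter 1965 and 1139, and at 1.5-fold 2534 and 918. On the ATM-labelled array the counts were 1561 and 1469, against 890 and 792 with normexp, 920 and 702 with only probes above background on all arrays, 3172 and 2656 at 1.5-fold, and 17260 and 346 with spike-in scaling. The share of higher calls on the Dnmt1 shRNA array was 77.5%, but 65.8% with median scaling (median of all genes -0.25), 63.3% without a filter and 69.0% with quantile normalization.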
